A study of Homo sapiens with 12 samples.

Results

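The genes described here are 10 members of the Hippo signalling pathway and its transcriptional outputs, CCN1, CCN2, AMOT, AMOTL1, AMOTL2, AJUBA, LATS1, LATS2, MOB1A and NF2. They were chosen by name, with earlier results of these data known. Every probe that the platform annotation gives to them was taken, whatever its values. Of these 10 genes, 6 were measured by 8 of the 16381 probes: 1 probe each for CCN1, AMOT, AMOTL2 and AJUBA, and 2 each for CCN2 and MOB1A. AMOTL1, LATS1, LATS2 and NF2 had no named probe and were not analysed here. The annotation used here gave 1 symbol to 9910 probes and none to 6467. Of the named probes, 88.9% have a symbol in the first part of the alphabet (A to M), so genes later in the alphabet are thinly covered.

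RNA came from HCT116, a human colorectal carcinoma cell line with wild-type p53, and 12 samples of it were run on Illumina HumanHT-12 v4 BeadChips. The cells received 5 nM siRNA and were harvested 24 h later, with 4 biological replicates in each of 3 groups. The groups were siLUC, a non-targeting control siRNA against luciferase, and siLRH-1 #1 and siLRH-1 #2, which are different siRNAs against LRH-1 (NR5A2), an orphan nuclear receptor that binds DNA as a monomer. Each siRNA is a single sequence, and all groups share the parental line, the transfection reagent and the siRNA dose. The transcript of NR5A2 itself was not analysed here, and the knockdown is therefore not checked by these values. The question the comparison addresses is which transcripts move when LRH-1 is silenced, with the second siRNA as a check on the first.

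The Hippo pathway is a kinase cascade that restrains the growth of epithelia. Upstream kinases activate LATS1 and LATS2 together with their MOB1 cofactors, and LATS kinases phosphorylate the co-activators YAP and TAZ, which then stay in the cytoplasm. Unphosphorylated YAP and TAZ enter the nucleus and bind TEAD transcription factors, and CCN1 and CCN2 are among the target genes most used as a readout of that step. In the intestinal epithelium of mice YAP is known for its part in regeneration after injury.

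The values were the deposited quantile-normalised log2 intensities. A single limma model held all 12 arrays, p-values were adjusted over the 16381 probes by the Benjamini-Hochberg method, and a probe called below had an adjusted p under 0.05. Array medians lay between 6.49 and 6.50, and arrays of a group correlated at 0.996 or above. Of 9 epithelial markers measured, mean log2 intensities were 12.54 for KRT19, 12.12 for EPCAM, 11.55 for KRT8, 8.70 for KRT18, 8.10 for CDX2 and 8.02 for CDH1. CLDN3 (6.61), CLDN4 (6.29) and KRT20 (5.96) were dim. Of the 9, 4 changed with siLRH-1 #1 (EPCAM and CDH1 higher, KRT8 and KRT18 lower) and 0 with siLRH-1 #2 (3 at an unadjusted p under 0.05 in limma). Over all genes, each by its brightest probe, 23.5% changed with siLRH-1 #1 and 8.39% with siLRH-1 #2. The 3 measured fibroblast markers were also dim, at 5.97 to 6.33, and 0 of them changed with either siRNA in limma, also at an unadjusted p under 0.05. Of 4 measured leukocyte markers, CD68 and HLA-DRA changed with siLRH-1 #1, in opposite directions, while PTPRC and CD3E were not analysed here. Mean log2 intensities of the 4 were 7.95 for CD68, 7.24 for HLA-DRA, 6.12 for CD14 and 6.11 for LYZ. The part of these markers in the results below was not tested.

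The arrays also fell into sets of 5 and 7 that the labels do not describe. The set of 5 held siLUC replicate 2, siLRH-1 #1 replicate 3 and siLRH-1 #2 replicates 2, 3 and 4. Fits within a set thus have 1 siLRH-1 #2 array among the 7, and 1 siLUC and 1 siLRH-1 #1 array among the 5. Over all probes the SD of the difference between the set means was 0.0041 on the log2 scale, against 0.0391 for the next closest of 2047 ways of dividing the arrays. The set was therefore entered as a block in a second fit, chosen after the data were seen, and its values stand beside those results that it moves. How the sets arose was not tested.

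The promoters of the CCN2, AMOTL2 and AJUBA genes are shown because each holds GGAATG, the core letters bound by TEAD factors, in the 250 bases before a RefSeq start site (GRCh38.p14). The 9 members with an entry have 14 such windows. CCN1 is not in the promoter table. The search covered both strands, and 3 of the 14 windows held the motif, beside 11.9% of 35116 windows of the same length over all genes. The CCN2 window held it at 3 places on the gene's strand, at 169 to 164, 104 to 99 and 95 to 90 bases before the start, and 0.0826% of all windows held at least 3. Capitals mark the motif in the CCN2 window (chr6:131951373-131951622, minus strand) and in 30 bases around the match in AMOTL2 (chr3:134374499-134374528, minus strand, where it reads as the reverse complement CATTCC) and in AJUBA (chr14:22976884-22976913, minus strand).
CCN2: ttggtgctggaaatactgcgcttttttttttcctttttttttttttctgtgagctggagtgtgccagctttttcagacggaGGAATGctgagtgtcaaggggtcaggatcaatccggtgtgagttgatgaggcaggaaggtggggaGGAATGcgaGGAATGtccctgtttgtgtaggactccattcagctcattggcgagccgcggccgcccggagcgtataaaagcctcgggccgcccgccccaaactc
AMOTL2: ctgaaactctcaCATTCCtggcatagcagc
AJUBA: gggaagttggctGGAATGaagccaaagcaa
The letters CAAGGNCA, close to the LRH-1 site YCAAGGYCR given by the authors (Y for C or T, R for A or G), were found in 1 member window. This was a second AMOTL2 window, at 132 to 125 bases before its start, and 4.51% of all windows held the letters. The AMOTL2 match read CAAGGACA after a G, so it differed from the authors' site at both Y positions. No member window held both motifs. A match is a description of the sequence and was not tested for binding.

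CCN1 and CCN2 are secreted matricellular proteins of the same family, known earlier as CYR61 and CTGF. CCN1 (chr1:85580761-85583950) rose with both siRNAs, more with siLRH-1 #1 than with siLRH-1 #2. The siLUC arrays, in the order of replicates 1 to 4, read 8.85, 8.75, 8.81 and 8.81. With siLRH-1 #1 they read 9.47, 9.42, 9.40 and 9.31, and with siLRH-1 #2 they read 9.03, 9.10, 9.17 and 9.11. The 3 groups did not overlap at any array, with siLUC lowest, siLRH-1 #2 between and siLRH-1 #1 highest. Group means were 8.80 ± 0.044, 9.40 ± 0.069 and 9.10 ± 0.056 (SD, n = 4) for siLUC, siLRH-1 #1 and siLRH-1 #2. The log2 fold change was 0.59 with siLRH-1 #1 (standard error 0.0593, 1.51-fold, adjusted p = 9.41e-08, limma). With siLRH-1 #2 it was 0.30 (same standard error, 1.23-fold, adjusted p = 0.00243, limma). The siRNAs also differed from each other, by 0.29 on the log2 scale (95% interval 0.17 to 0.42, adjusted p = 0.00125, limma), with siLRH-1 #1 higher. That difference was 0.36 among the set of 7 arrays, with 1 siLRH-1 #2 array. Among the set of 5 it was 0.27 and not called, with 1 siLRH-1 #1 array. With the array set as a block the values were 0.59 and 0.30 against siLUC and both were called. Within the sets the call with siLRH-1 #2 was lost, at 0.21 among the 7 arrays (1 siLRH-1 #2 array) and 0.38 among the 5 (1 siLUC array). With siLRH-1 #1 the value was 0.58 among the 7 arrays and was called. Among the 5 it was 0.65, from 1 siLRH-1 #1 array and 1 siLUC array.

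**Figure D1:**
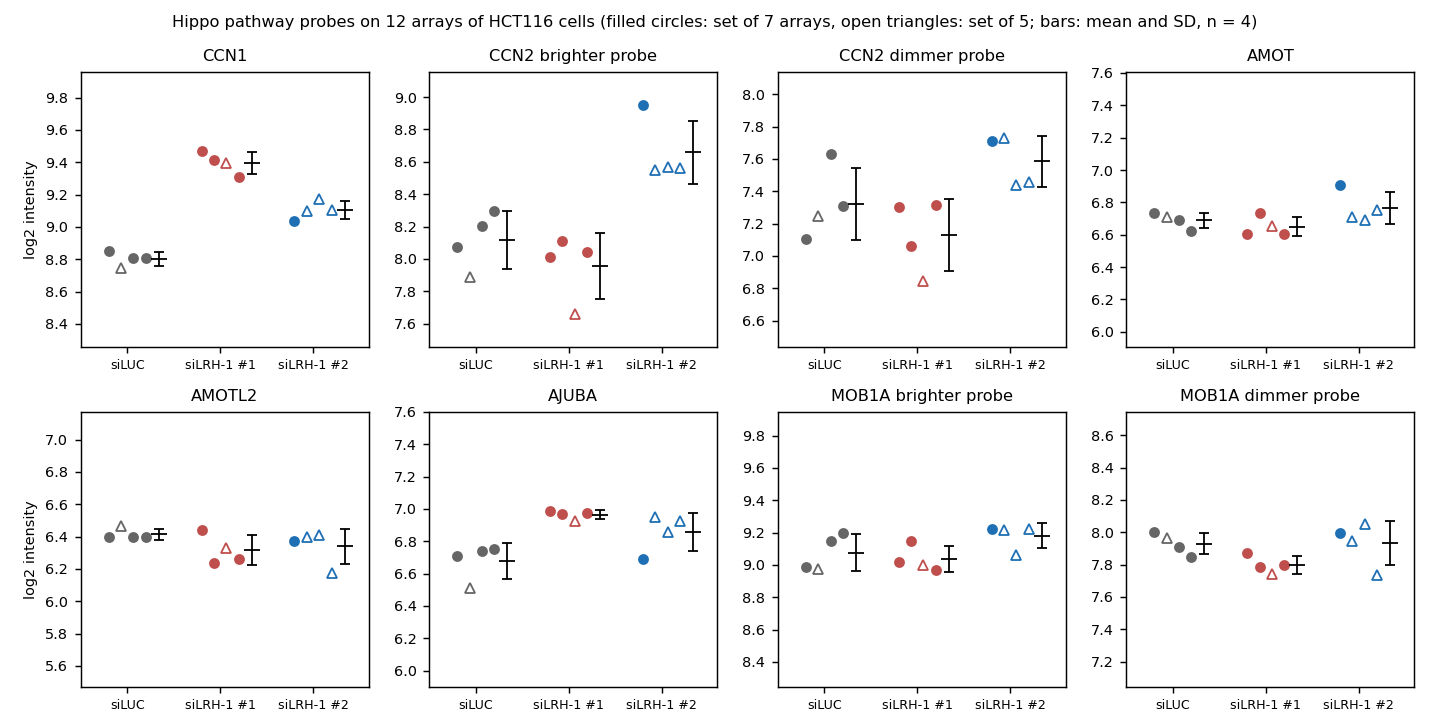
Log2 intensity (y axis) of the 8 probes on the 4 arrays of each siRNA group (x axis), with filled circles for the set of 7 arrays, open triangles for the set of 5, and bars for the mean and SD of 4 arrays. CCN1 separates into 3 levels, the brighter CCN2 probe is at 8.55 or above only with siLRH-1 #2, and AMOT, AMOTL2 and MOB1A overlap between groups.

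CCN2 (chr6:131948176-131951372) did not follow CCN1. It was higher with siLRH-1 #2 alone, on the brighter of its probes. That probe read 8.08, 7.89, 8.20 and 8.30 with siLUC, 8.01, 8.11, 7.66 and 8.04 with siLRH-1 #1, and 8.95, 8.55, 8.57 and 8.56 with siLRH-1 #2. Every siLRH-1 #2 array lay above all 8 others, while siLUC and siLRH-1 #1 overlapped. Group means were 8.12 ± 0.177, 7.96 ± 0.203 and 8.66 ± 0.196 (SD, n = 4). The log2 fold change was 0.54 with siLRH-1 #2 (standard error 0.0997, 1.46-fold, adjusted p = 0.00131, limma). With siLRH-1 #1 it was −0.16, with a 95% interval of −0.37 to 0.05 (adjusted p = 0.327, limma). The difference between the siRNAs was −0.70 (interval −0.91 to −0.50, adjusted p = 2.52e-05, limma). In each group the arrays of the set of 5 read lower on this probe than those of the set of 7, at 7.89 against 8.08 to 8.30 with siLUC, 7.66 against 8.01 to 8.11 with siLRH-1 #1 and 8.55 to 8.57 against 8.95 with siLRH-1 #2. Set means were nearly equal over all probes, and most siLRH-1 #2 arrays were in the set of 5. On a probe higher with siLRH-1 #2 alone, near-equal set means bring such an order, so the order is not a separate finding. The larger rise in the block fit follows from the same order. With the set as a block the rise with siLRH-1 #2 was 0.72 (adjusted p = 1.17e-07, limma) and the difference between the siRNAs −0.88. In that fit the value with siLRH-1 #1 was again −0.16, with a narrower unadjusted interval of −0.29 to −0.03 and no call (adjusted p = 0.0820, limma). Within the sets of 7 and 5 arrays the rise was 0.76 and 0.67, and both values were called. When limma's moderation of the variance was dropped, the rise had an adjusted p of 0.0765 in limma.

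The dimmer CCN2 probe had the same signs and smaller values. It read 7.10, 7.25, 7.63 and 7.31 with siLUC, 7.30, 7.06, 6.85 and 7.32 with siLRH-1 #1, and 7.71, 7.73, 7.44 and 7.46 with siLRH-1 #2. The siLRH-1 #2 arrays lay above all siLRH-1 #1 arrays but overlapped siLUC through siLUC replicate 3. The log2 fold changes were −0.19 with siLRH-1 #1 (adjusted p = 0.242, limma) and 0.26 with siLRH-1 #2 (adjusted p = 0.165, limma), with a standard error of 0.104. The siRNAs differed by −0.45 (interval −0.67 to −0.24, adjusted p = 0.00384, limma). The value of 0.26 became 0.36 without siLUC replicate 3 (adjusted p = 0.0333, limma) and 0.37 with the array set as a block (adjusted p = 0.0267, limma), so this probe was called in those fits. The difference between the siRNAs lost its call without the moderated variance (adjusted p = 0.0899, limma). Within the set of 7 arrays it was −0.48 and not called, from 1 siLRH-1 #2 array. Within the set of 5 it was −0.70, from 1 siLRH-1 #1 array. Both probes target CCN2, so they are not independent readings.

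Between the CCN genes the order of the groups was thus unlike. For CCN1 every neighbouring pair in the order siLUC, siLRH-1 #2, siLRH-1 #1 differed beyond the spread. For CCN2 siLRH-1 #2 was highest, and the value of siLRH-1 #1 below siLUC was not called. Over the 12 arrays the brightest probes of CCN1 and CCN2 had a Pearson correlation of −0.19, as a description of points that share groups and array sets.

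AJUBA (chr14:22971177-22982551), a LIM domain protein that binds and inhibits LATS kinases, rose with siLRH-1 #1. It read 6.71, 6.51, 6.74 and 6.75 with siLUC, 6.99, 6.97, 6.92 and 6.97 with siLRH-1 #1, and 6.69, 6.95, 6.86 and 6.93 with siLRH-1 #2. The siLRH-1 #1 arrays all lay above the siLUC arrays, while siLRH-1 #2 overlapped both. The log2 fold change was 0.29 with siLRH-1 #1 (standard error 0.0680, 1.22-fold, adjusted p = 0.00395, limma). With siLRH-1 #2 it was 0.18, with an interval of 0.04 to 0.32 before adjustment and an adjusted p of 0.137 in limma. The siRNAs differed from each other by 0.11 (interval −0.03 to 0.25, adjusted p = 0.389, limma), so a difference in response between them was not shown. The value with siLRH-1 #2 depended on the array set. Among the set of 7 arrays it was −0.04, from 1 siLRH-1 #2 array, and among the set of 5 it was 0.40 (adjusted p = 0.0694, limma), from 1 siLUC array. The rise with siLRH-1 #1 was 0.24 within the set of 7 (adjusted p = 0.0290, limma). Within the set of 5 it was 0.41 and not called, from 1 siLRH-1 #1 array and 1 siLUC array.

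The angiomotins AMOT and AMOTL2 bind YAP at cell junctions and hold it out of the nucleus. Neither of their probes was called in any of the comparisons. AMOT (chrX:112774877-112840831) read 6.63 to 6.74 with siLUC, 6.60 to 6.73 with siLRH-1 #1 and 6.69 to 6.91 with siLRH-1 #2, and the highest value was siLRH-1 #2 replicate 1. AMOTL2 (chr3:134355345-134375417), itself a YAP target, read 6.395 to 6.465 with siLUC, 6.24 to 6.44 with siLRH-1 #1 and 6.18 to 6.41 with siLRH-1 #2. Their log2 fold changes were −0.04 and 0.08 for AMOT and −0.10 and −0.07 for AMOTL2, with siLRH-1 #1 and #2. Their mean log2 intensities over the 12 arrays were 6.70 and 6.36, near the array medians.

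MOB1A (chr2:74152528-74178879), the LATS cofactor, was not called on either of its probes. The brighter probe read 8.97 to 9.20 with siLUC, 8.97 to 9.15 with siLRH-1 #1 and 9.06 to 9.225 with siLRH-1 #2. The dimmer probe read 7.85 to 8.00 with siLUC, 7.74 to 7.87 with siLRH-1 #1 and 7.74 to 8.05 with siLRH-1 #2. The groups overlapped on both. Against siLUC, the log2 fold changes of the brighter probe were −0.04 and 0.105, and those of the dimmer probe were −0.13 and 0.00. Over the AMOT, AMOTL2 and MOB1A probes the 95% intervals against siLUC lay between −0.27 and 0.24. Without siLRH-1 #2 replicate 4 the difference between the siRNAs on the dimmer MOB1A probe was −0.20 instead of −0.13 and was called (adjusted p = 0.0495, limma).

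**Figure D2:**
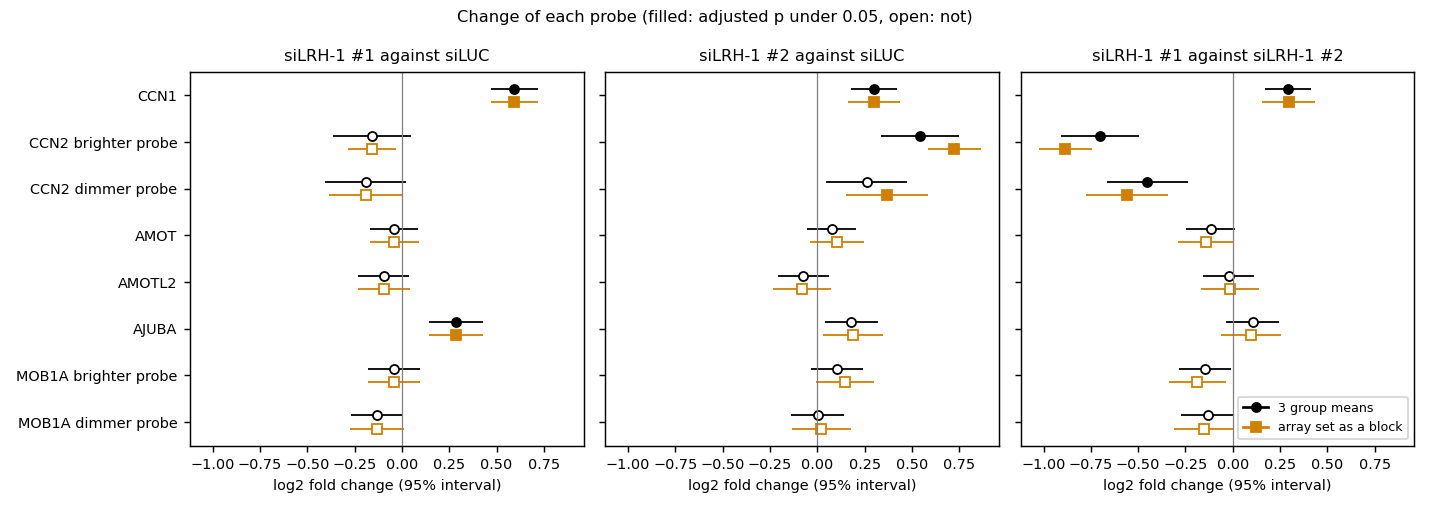
Log2 fold change with its unadjusted 95% interval (x axis) for the 8 probes (y axis) in the 3 comparisons, with circles for the fit of 3 group means and squares for the fit with the array set as a block. Filled symbols have an adjusted p under 0.05, which CCN1 reaches in each panel, the brighter CCN2 probe in both panels that involve siLRH-1 #2, and AJUBA in the panel of siLRH-1 #1 against siLUC. The dimmer CCN2 probe reaches it between the siRNAs in both fits and with siLRH-1 #2 against siLUC in the block fit alone.

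Counted over the 8 probes, siLRH-1 #1 raised 2 (CCN1 and AJUBA) and lowered 0, where 17.2% of all probes changed and 8.05% rose. siLRH-1 #2 raised 2 (CCN1 and the brighter CCN2 probe) and lowered 0, where 5.71% of all probes changed and 2.86% rose. In the fit of 3 group means no member probe was lower with either siRNA at an unadjusted p under 0.05 in limma, while with the array set as a block the brighter CCN2 probe was, with siLRH-1 #1 (unadjusted p = 0.0163). With the array set as a block siLRH-1 #2 raised 3 of the 8, the dimmer CCN2 probe being the addition, where 8.72% of all probes changed. Between the siRNAs 3 probes differed, CCN1 being higher and both CCN2 probes lower with siLRH-1 #1, where 12.6% of all probes differed. The CCN1 probe was the 1 probe called in the same direction with both siRNAs, where 3.24% of all probes were. The median log2 fold change over the 8 probes came to −0.07 for siLRH-1 #1 and 0.14 for siLRH-1 #2, beside 0.01 and −0.00 over all probes. Groups of 4 arrays did not overlap on 2 probes with siLRH-1 #1, 2 with siLRH-1 #2 and 3 between the siRNAs, where the shares over all probes were 19.4%, 11.5% and 15.9%. With 8 probes, these counts say little of the list as a whole, and the comparisons of each siRNA share the siLUC arrays.

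**Figure D3:**
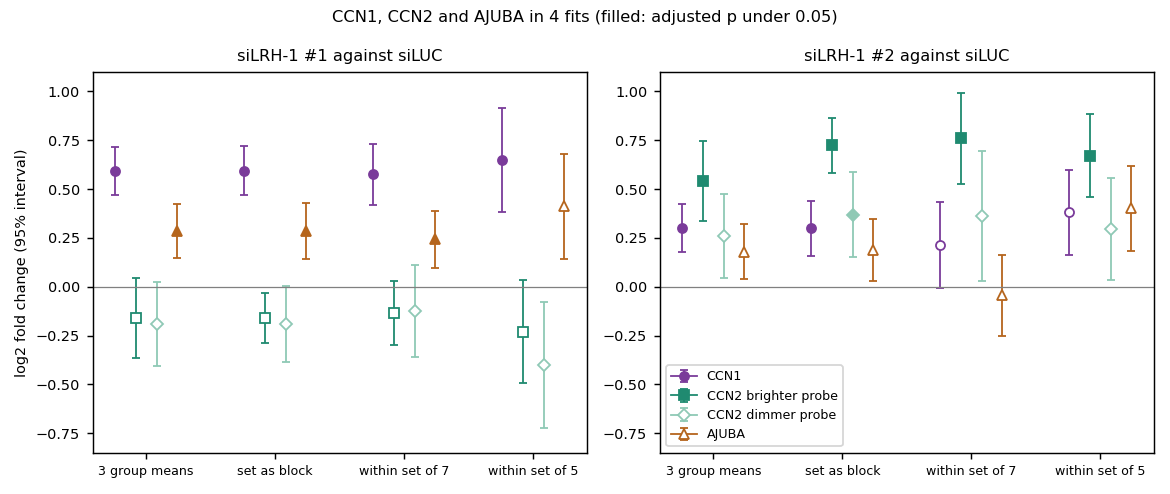
Log2 fold change against siLUC (y axis) with its unadjusted 95% interval for CCN1, both CCN2 probes and AJUBA in 4 fits (x axis), namely 3 group means, array set as a block, and within the sets of 7 and of 5 arrays. CCN1 stays at 0.58 to 0.65 with siLRH-1 #1, the brighter CCN2 probe at 0.54 to 0.76 with siLRH-1 #2, and AJUBA with siLRH-1 #2 goes from −0.04 to 0.40. The set of 7 has 1 siLRH-1 #2 array, and the set of 5 has 1 siLUC array and 1 siLRH-1 #1 array.

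Beyond the members, 19 of 57 other listed Hippo pathway genes were measured, each by its brightest probe. STK3, STK4, SAV1, YAP1, WWTR1 and the TEAD genes were not analysed here. With siLRH-1 #1, 4 of the 19 rose (CRB3, FAT1, LLGL1 and LLGL2) and 1 fell (PTPN14), where 23.5% of 7452 genes changed. With siLRH-1 #2, 1 rose (CRB3) and 1 fell (CSNK1E), where 8.39% of genes changed. The dimmer MOB4 probe fell with siLRH-1 #1 (−0.25, adjusted p = 0.0121, limma), while its brightest probe was not called (−0.14, adjusted p = 0.245, limma). The median log2 fold changes of the list were 0.01 and 0.05, beside 0.01 and 0.00 over all genes. CRB3, a crumbs family protein of the apical membrane that acts upstream of the kinases, was the only gene of the list to change with both siRNAs, which 4.78% of genes did. It read 8.17, 8.11, 8.00 and 8.14 with siLUC, 8.55, 8.50, 8.31 and 8.61 with siLRH-1 #1, and 8.70, 8.49, 8.44 and 8.61 with siLRH-1 #2. Both siRNA groups lay above every siLUC array and overlapped each other. Its log2 fold changes were 0.39 (adjusted p = 0.000344, limma) and 0.46 (adjusted p = 0.000319, limma). Neither was called within the set of 5 arrays (0.20 and 0.40), where siLUC and siLRH-1 #1 had 1 array each. The dimmer CRB3 probe gave 0.11 with siLRH-1 #1 (adjusted p = 0.365, limma) and 0.26 with siLRH-1 #2 (adjusted p = 0.0377, limma), so the call with both siRNAs rests on the brighter of its probes.

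Of the listed genes that changed with a single siRNA, FAT1, an atypical cadherin, rose by 0.35 with siLRH-1 #1 (adjusted p = 0.000786, limma) and had a value of 0.01 with siLRH-1 #2. Among the 5 arrays of the smaller set its rise was 0.27 and not called, from 1 siLRH-1 #1 array and 1 siLUC array. The siRNAs differed on it by 0.33 (adjusted p = 0.00164, limma). That difference was no longer called among the 7 arrays of the larger set, with 1 siLRH-1 #2 array. PTPN14, a tyrosine phosphatase that binds YAP, fell by 0.30 with siLRH-1 #1 (adjusted p = 0.00332, limma). The fall was not called within the set of 5 arrays (−0.34, from 1 siLRH-1 #1 array and 1 siLUC array). With siLRH-1 #2 its value was 0.16, which was called with the array set as a block (0.26, adjusted p = 0.0121, limma), and the siRNAs differed by −0.47 (adjusted p = 5.20e-05, limma). CSNK1E, a casein kinase that phosphorylates YAP on its way to degradation, fell by 0.28 with siLRH-1 #2 (adjusted p = 0.0284, limma) and had a value of 0.21 with siLRH-1 #1 (adjusted p = 0.0589, limma). The siRNAs differed on it by 0.49 (adjusted p = 7.25e-05, limma). These values are from its brightest probe. On its next brightest probe the call was with siLRH-1 #1 instead (0.29, adjusted p = 0.00651, limma) and not with siLRH-1 #2 (−0.18, adjusted p = 0.164, limma). In the fit of 3 group means the siRNA with a call thus depends on the probe, and both probes had the same signs. The dimmest CSNK1E probe, at a mean of 5.99, gave 0.00 and 0.07. On the brightest probe the fall was not called without siLUC replicate 2 (adjusted p = 0.142), siLUC replicate 3 (0.0708) or siLRH-1 #2 replicate 1 (0.167, all from limma). Its value with siLRH-1 #1 was called without siLUC replicate 2 (adjusted p = 0.0281), siLRH-1 #1 replicate 2 (0.0491) or siLRH-1 #2 replicate 1 (0.0419), and with the array set as a block (0.0146, all from limma). In the block fit the brightest and next brightest probes were each called with both siRNAs in opposite directions, as 0.824% of all probes were. With siLRH-1 #2 the brightest gave −0.39 (adjusted p = 0.000294, limma). The next gave 0.29 and −0.28 with siLRH-1 #1 and #2 (adjusted p = 0.00140 and 0.00805, limma).

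The second list held YAP and TAZ targets other than the members, and 16 of 29 were measured. With siLRH-1 #1, 2 rose (EDN1 and FJX1) and 4 fell (BIRC5, F3, PTPN14 and DOCK5). EDN1 was dim, at a mean log2 intensity of 6.19, and PTPN14 is the same probe as in the first list. With siLRH-1 #2, 1 rose (ASAP1) and 1 fell (DKK1). These counts are by brightest probe. With siLRH-1 #2 the dimmer GGH probe was called (0.30, adjusted p = 0.0102, limma) and the dimmer DKK1 probe was not (−0.02, adjusted p = 0.961, limma). Over all genes 23.5% changed with siLRH-1 #1 and 8.39% with siLRH-1 #2. In the same direction with both siRNAs, 0 of the 16 were called in limma (4.78% of genes were), and 1, ASAP1, had an unadjusted p under 0.05 with each. With the array set as a block ASAP1 was called with both in the same direction, and F3 and PTPN14 with both in opposite directions. In that fit 3 of the 16 rose and 2 fell with siLRH-1 #2, where 8.72% of all probes changed. AXL was the added fall (−0.24, adjusted p = 0.0267, limma), while its dimmer probe was not called (−0.06). The DOCK5 fall with siLRH-1 #1 lost its call (adjusted p = 0.0503, limma). In the fit of 3 group means the median log2 fold changes of the list came to 0.07 for siLRH-1 #1 and 0.00 for siLRH-1 #2, beside 0.01 and 0.00 over all genes.

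BIRC5, which encodes survivin, an inhibitor of apoptosis that also acts in mitosis, had the largest change of that list. It read 10.47, 10.22, 10.45 and 10.47 with siLUC, 9.86, 9.89, 9.58 and 9.78 with siLRH-1 #1, and 10.57, 10.49, 10.42 and 10.37 with siLRH-1 #2. The siLRH-1 #1 arrays lay below all 8 others. BIRC5 fell by 0.62 with siLRH-1 #1 (adjusted p = 1.38e-06, limma), its value with siLRH-1 #2 was 0.06, and the siRNAs differed by −0.68 (adjusted p = 8.32e-07, limma). ASAP1, a GTPase-activating protein for Arf, rose by 0.35 with siLRH-1 #2 (adjusted p = 0.00180, limma). Within the set of 5 arrays that rise was 0.39 and not called, with 1 siLUC array. With siLRH-1 #1 the value of ASAP1 was 0.17 (adjusted p = 0.0836, limma). That value was called without siLRH-1 #1 replicate 3 (0.22, adjusted p = 0.0261, limma) and with the array set as a block (adjusted p = 0.0478, limma).

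F3 encodes tissue factor, the initiator of coagulation, and its values had opposite signs with the siRNAs. Its brighter probe fell by 0.33 with siLRH-1 #1 (adjusted p = 0.00947, limma) and had a value of 0.23 with siLRH-1 #2 (adjusted p = 0.150, limma). The siRNAs differed on it by −0.56 (adjusted p = 8.68e-05, limma). Without siLUC replicate 3 these became −0.25 (adjusted p = 0.0538) and 0.30 (adjusted p = 0.0447, both from limma), and with the array set as a block both were called (−0.33 and 0.35). Its dimmer probe, named after its values were seen, gave −0.25 (adjusted p = 0.0469, limma) and 0.31 (adjusted p = 0.0367, limma). Calls in opposite directions were found on 0.0488% of all probes, or 0.824% with the array set as a block. On the dimmer probe the siLRH-1 #1 call did not hold when siLUC replicate 1, 3 or 4, siLRH-1 #1 replicate 1, 3 or 4, or siLRH-1 #2 replicate 2 or 3 was left out (adjusted p 0.0504 to 0.188), nor did the siLRH-1 #2 call on leaving out siLUC replicate 1, 2 or 4, or siLRH-1 #2 replicate 1 or 2 (adjusted p 0.0708 to 0.214, both ranges from limma).

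**Figure D4:**
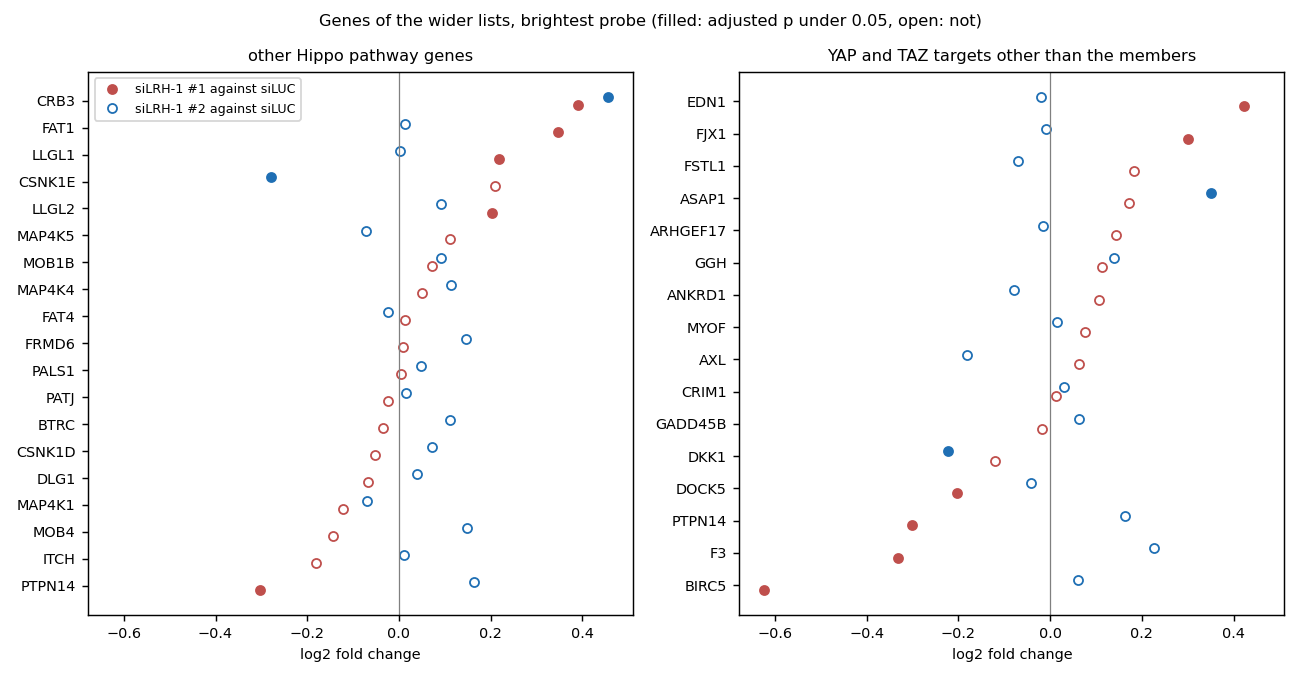
Log2 fold change against siLUC (x axis) of the genes of the wider lists by their brightest probe (y axis), red for siLRH-1 #1 and blue for siLRH-1 #2, filled where the adjusted p is under 0.05. CRB3 at 0.39 and 0.46 is the only gene filled for both siRNAs, and BIRC5 at −0.62 has the lowest value with siLRH-1 #1.

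By likeness of pattern over the 12 arrays among 7446 genes, the closest to the CCN1 probe were MED28, a Mediator subunit (Pearson r = 0.988), ADIPOR1, an adiponectin receptor (0.984), and DUSP1, a phosphatase of MAP kinases (0.973). Their log2 fold changes with siLRH-1 #1 and #2 were 1.14 and 0.62 for MED28, 0.52 and 0.27 for ADIPOR1, and 0.78 and 0.38 for DUSP1. As for CCN1, each was higher with siLRH-1 #1 than with siLRH-1 #2. The closest to the brighter CCN2 probe were CDKN1B, the cyclin-dependent kinase inhibitor p27 (0.969), CYP26B1, a retinoic acid hydroxylase (0.964), and MCUB, a subunit of the mitochondrial calcium uniporter (0.954). Their values were −0.09 and 0.41 for CDKN1B, −0.13 and 0.36 for CYP26B1, and 0.01 and 0.37 for MCUB. These genes were picked for their likeness, and the arrays share groups and array sets, so the correlations are a description.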

How the data were processed

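The samples were 12 preparations of total RNA from HCT116 cells, each run on an Illumina HumanHT-12 v4 BeadChip. According to their methods, the authors exported the images from GenomeStudio, dropped probes whose detection p was over 0.05 in all samples, and deposited log2 intensities that had been quantile-normalised in Partek (versions not given in the sources used here). Quantile normalisation hides a shift that most transcripts share. These values were used as deposited. A table of non-normalised signals was not used here, because its 24 columns could not be tied to samples by the labels, so detection in each group is unknown. No depth exists for arrays, and their number limits the precision.

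Probe symbols came from the platform annotation, and 9904 probes matched RefSeq gene IDs, with 0 symbols changed. A model with 3 group means (9 residual and 14.6 prior degrees of freedom) was fitted with limma 3.58.1 in R 4.3.3 and tested on simulated data. Lists used each gene's brightest probe. Figures used matplotlib 3.10.9 under Python 3.11.15. The members and lists were chosen with earlier results of these data known. Named genes were all members, up to 5 genes per list changed with both siRNAs and 3 changed with 1 siRNA, by size of change, and 3 genes most like CCN1 and 3 most like CCN2. Names given for other called list genes, for markers and for the dimmer probes of F3, CRB3, CSNK1E, MOB4, GGH, DKK1 and AXL are outside that rule. Alternatives were a block for the replicate number, leaving out each array, unmoderated variances, fits to the 8 arrays of a comparison, array weights, a threshold of 0.01 on the adjusted p, a mean log2 of at least 7, 16 added before log2, a common 75th percentile, an intensity trend, the mean of a gene's probes and, added after the data were seen, the array sets.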

Additional observations from a re-analysis of the deposited data

Results flagged for a closer look

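In 4 of 24 groups examined, 1 array stood apart from the other 3 by the gap to its nearest neighbour relative to the range of the group, where chance alone gives about 1 group in 20. On the brighter CCN2 probe, siLRH-1 #2 replicate 1 read 8.953 and the next array 8.570. It is also the only siLRH-1 #2 array in the set of 7. On AMOTL2, siLUC replicate 2 read 6.465 and the next array 6.396. On AJUBA, siLUC replicate 2 read 6.512 and the next array 6.710, and this replicate is the only siLUC array in the set of 5. On the brighter MOB1A probe, siLRH-1 #2 replicate 3 read 9.062 and the next array 9.216. Any part of the array sets in these values was not tested beyond the within-set values given for CCN2 and AJUBA.

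The siRNAs, which target the same transcript, differed from each other on 3 of the 8 probes in the limma model. CCN1 was 0.29 higher with siLRH-1 #1 on the log2 scale, and the log2 difference was −0.70 on the brighter CCN2 probe and −0.45 on the dimmer one. The cause was not tested, and no measure of LRH-1 itself was analysed here.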

How the results depend on the processing

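With the replicate number as a block the member counts were 2, 2, 3 and 1, as without it (siLRH-1 #1, siLRH-1 #2, their difference, and both siRNAs in the same direction), and the counts over all probes were 2758, 899, 2026 and 504 against 2813, 936, 2068 and 531. Arrays of the same number did not deviate together (correlations −0.041 to 0.043), so these values show no pairing by number. No arrays of different groups deviated together, whatever their number (largest absolute correlation 0.056). Pairing of the samples at preparation can therefore not be judged from these values. With each array left out in turn the member counts ranged over 2 to 2, 2 to 3, 3 to 4 and 1 to 1, and the counts over all probes over 2350 to 2800, 498 to 957, 1299 to 2055 and 305 to 551. Leaving out siLRH-1 #2 replicate 1 took the count of 936 to 498 and leaving out siLUC replicate 2 took it to 514. Likewise, 2068 became 1299 without siLRH-1 #2 replicate 1 and 1302 without siLRH-1 #1 replicate 3, and 531 became 305 without siLUC replicate 2 and 349 without siLRH-1 #2 replicate 1. YAP and TAZ targets changed with both siRNAs, members included, numbered 1 (CCN1), with a range of 1 to 2 (2 without siLRH-1 #1 replicate 3), and other Hippo genes 1, with a range of 1 to 1. With each probe's own variance 1 member probe changed with siLRH-1 #2, and 367 probes changed with siLRH-1 #2 and 301 with both. At an adjusted p under 0.01 the counts over all probes were 1715, 466, 1194 and 257. With a mean log2 of at least 7, which drops the probes of AJUBA, AMOT and AMOTL2, 1 member probe changed with siLRH-1 #1 and 2 targets with both siRNAs, and with the mean of a gene's probes 2 targets did. With the array set as a block 1428 probes changed with siLRH-1 #2 and 2 targets with both. Within the set of 7 arrays the counts were 1 member probe with siLRH-1 #2 and 0 with both, 366, 991 and 147 probes for siLRH-1 #2, the difference and both, and 0 targets. Within the set of 5 they were 1, 1 and 0 member probes (siLRH-1 #1, #2 and both), 351, 273, 975 and 55 probes, 0 other Hippo genes and 0 targets. A group with 1 array in a set was assumed to vary like the others, and fewer arrays entered each fit. Beyond these fits the cause was not tested. Of 1143 single values, 15 changed sign, none of them called in either fit. Background correction from raw signals, median-scaled raw signals and slide as a block could not be run.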
